A study of Homo sapiens with 12 samples.

Results

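The AP-1 genes described here are FOS, FOSB, FOSL1, FOSL2, JUN, JUNB, JUND, ATF3, BATF3 and MAFF, 10 of the 62588 Ensembl genes in the deposited tables. Their rows were taken by gene symbol, and the set itself was chosen with earlier results of these data known. All 10 passed the filter on low counts and were among the 16628 genes tested. Their transcripts were measured by RNA sequencing in THP-1, an established human monocytic leukemia line, in 12 libraries that form 4 groups of 3. Untreated cells were compared with cells given 1 μg/mL 3'-3'-cGAMP, an agonist of the DNA-sensing adaptor STING that served as the positive control for antiviral signalling, and with cells given 20 μM or 50 μM chlorquinaldol, a chlorinated hydroxyquinoline antiseptic, all for 8 h. All groups are the same single line. The sources used here give neither a vehicle nor a harvest time for untreated cells, so solvent or time and the agents themselves cannot be told apart. They also do not say whether replicates were separate cultures, and p-values then measure only the spread between these samples, which may be technical.

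AP-1 is a dimer of basic leucine zipper (bZIP) proteins that binds the site TGACTCA or the cyclic AMP response element (CRE) TGACGTCA. JUN proteins pair with each other or with FOS proteins, whereas FOS proteins need a JUN partner, and ATF3, BATF3 and the small Maf protein MAFF are bZIP relatives that join the same network. In monocytes and macrophages many of these genes are switched on within minutes by growth factor, cytokine or stress kinases, and their transcripts are short-lived. A level after 8 h is therefore a late point in such a response.

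Promoter sequences are shown for the 4 genes whose RefSeq promoter window held a full CRE or the JUN-type variant TGACATCA, since JUN and ATF proteins themselves can bind these letters. Of the 10 genes, 8 matched the RefSeq table (GRCh38.p14), in 10 windows that run from 250 bases before to 50 after a start. FOSL1 and BATF3 had no entry. The sequences read 5′ to 3′ on the strand of the gene, and capitals mark the matched motif:
JUN: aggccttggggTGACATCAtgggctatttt
JUND: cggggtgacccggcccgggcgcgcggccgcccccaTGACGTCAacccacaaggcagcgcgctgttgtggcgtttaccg
ATF3: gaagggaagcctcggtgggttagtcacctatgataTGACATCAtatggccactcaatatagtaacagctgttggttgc
MAFF: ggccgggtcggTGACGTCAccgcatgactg

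The JUN stretch is chr1:58784096-58784125 on the minus strand, with its motif 67 bases before the start. The JUND stretch is chr19:18281780-18281857 on the minus strand, with the motif 200 bases before the start. That of ATF3, from the first of its 2 starts, is chr1:212565249-212565326 on the plus strand, with the motif 123 bases before it. That of MAFF, also from the first of 2 starts, is chr22:38201929-38201958 on the plus strand, with the motif 54 bases before it. JUN and MAFF are shown as 30 bases because GENCODE 29 places exon sequence of these genes there. For JUN it belongs to the only transcript listed, so the 67 bases are counted from the RefSeq start. Over all 35116 windows of this length, 1.85% held TGACGTCA and 2.61% TGACATCA.

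The other motifs searched, on both strands, were TGACTCA (in 4.95% of all windows), the ATF4 site TGATGCAA (0.866%), the antioxidant response element TGACNNNGC (13.3%), the metal response cores TGCACNC (12.1%) and TGCGCNC (20%), the ETS core GGAAGT (22.8%), the heat shock core GAANNTTC (6.77%) and the hypoxia core ACGTG (21.4%). The CArG box of SRF (1.29%) and the NF-kB site (7.73%) were searched by name. TGACTCA occurred in 1 window, that of FOSL2, 5 bases after the start. The antioxidant letters occurred in JUND and in the first MAFF window, and neither of the 2 JUND matches overlaps its CRE. JUN held 1 heat shock core, FOSB, JUNB and the second ATF3 window each held an ETS core, and the TGCGCNC core was found in FOSL2, JUNB and JUND. ACGTG was found in FOSL2 and in both MAFF windows. The FOS window held none of the 12 motifs, which says only that these letters are not in it.

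The libraries held 17620929 to 19222607 gene-assigned counts. Levels below are CPM, counts scaled to a common library size after TMM scaling, or FPKM, which also divides by transcript length, where genes are compared with each other. A gene is called where its Benjamini-Hochberg adjusted p in edgeR's quasi-likelihood test, over all 16628 genes, is below 0.05, and all adjusted p-values of single genes below come from that test unless another tool is named. Every monocytic marker on the list of 9 was detected, although MPO stayed at or below 2.82 CPM. Their summed level was 1232 to 1284 CPM in the untreated group and 1435 to 1604 CPM in the cGAMP group. Chlorquinaldol libraries summed to 1115 to 1242 CPM (20 μM) and 1245 to 1492 CPM (50 μM). The sums hide monocytic markers that moved apart: from untreated cells to 20 μM and 50 μM, the group means of LYZ were 472, 245 and 217 CPM, whereas those of ITGAM were 59.9, 182 and 185 CPM, of CSF1R 115, 218 and 307 CPM and of CD14 19.8, 42.7 and 36.8 CPM. With cGAMP these means were 508 CPM for LYZ, 54.5 for ITGAM, 224 for CSF1R and 19.5 CPM for CD14. The 4 T-cell, 4 epithelial, 4 fibroblast and 3 erythroid markers each stayed under 1 CPM in every library. The B-cell marker MS4A1 was at 0 in every library. The part of these marker levels and shifts in the results was not tested.

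At 50 μM chlorquinaldol all 10 AP-1 genes rose against untreated cells, against 32.2% of all tested genes called higher and 34.7% called lower. Their median log2 change was 1.71, beside −0.03 over all tested genes. For each of the 10, no 50 μM library overlapped an untreated one. How many of all tested genes share this was not counted, so it is not shown to be particular to these genes. At 20 μM 7 rose and none fell, with 27.1% of all genes called higher and 28.0% lower (median 0.97 beside −0.0016 over all genes). FOSL1, FOSL2 and BATF3 were the 3 not called at that dose. With cGAMP 2 rose, ATF3 and BATF3, and 1 fell, FOSB, while 11.6% of all genes were called higher and 11.8% lower (median 0.02 beside −0.05). These 3 comparisons share the untreated libraries. In such bulk RNA a change in the share of cells that make a transcript and a change in its amount per cell cannot be told apart.

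**Figure D1:**
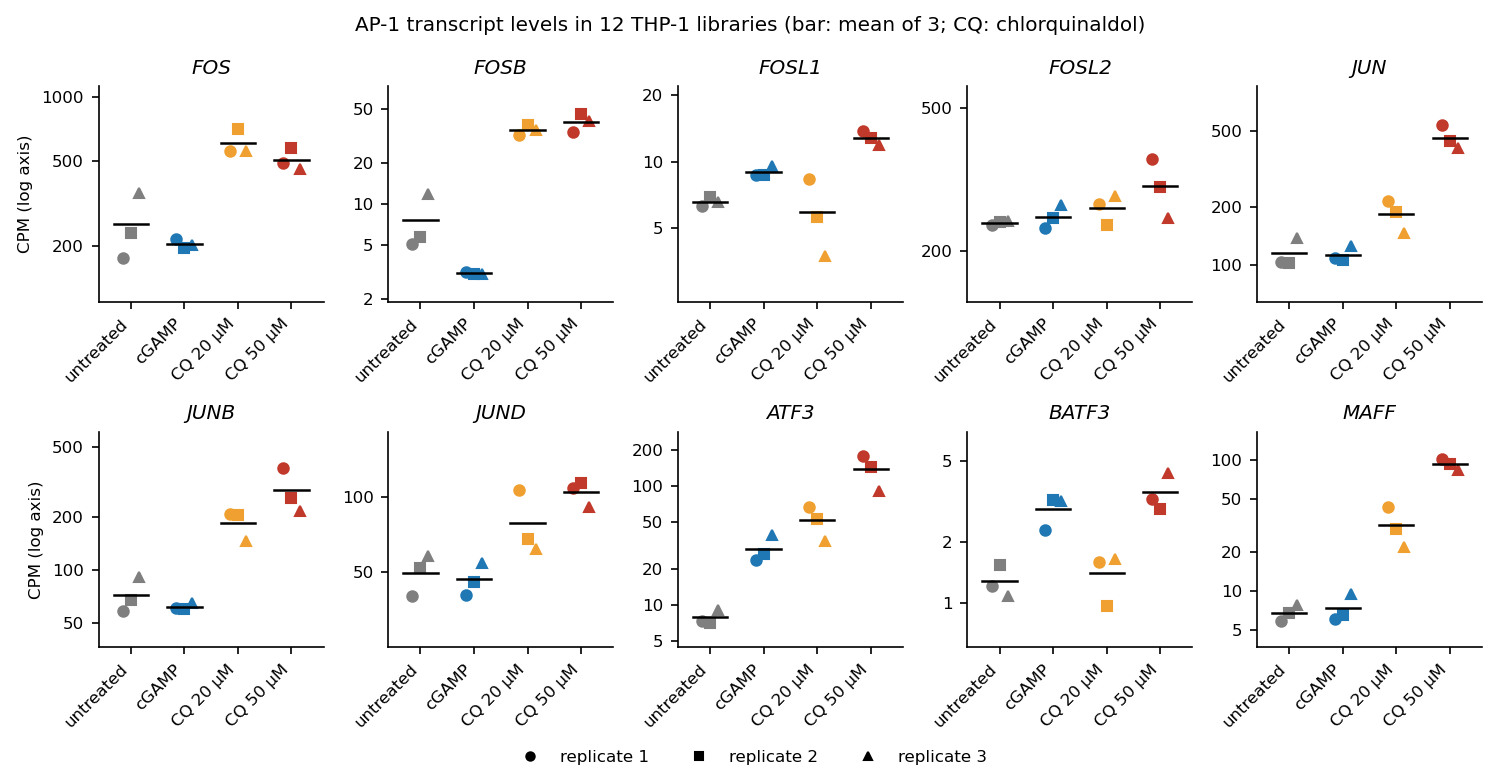
Level of each of the 10 AP-1 genes in CPM on a log axis, by group, with 1 point per library (shape gives the replicate) and a bar at the mean of 3. At 50 μM the 3 libraries lie above all 3 untreated ones in every panel, whereas with cGAMP this holds for FOSL1, ATF3 and BATF3, and FOSB lies below.

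FOS, the founding member of its family and a textbook immediate early gene (chr14:75278774-75282230, plus strand), was the AP-1 gene with the highest FPKM in each group. Its level was 175, 231 and 354 CPM in untreated replicates 1, 2 and 3, and 216, 195 and 203 CPM with cGAMP. At 20 μM it was 559, 708 and 559 CPM, and at 50 μM 491, 577 and 459 CPM. All 6 chlorquinaldol libraries lay above all 6 others, and the cGAMP libraries lay within the untreated range. The rise was 2.40-fold at 20 μM (log2 1.26 ± 0.18 SE, adjusted p = 1.28e-05) and 2.01-fold at 50 μM (1.01 ± 0.18, adjusted p = 7.95e-05). FOS was not called with cGAMP (log2 −0.31 ± 0.18, adjusted p = 0.226). Untreated replicate 3 was the highest of its group. Without it the cGAMP difference was 0.01, and without replicate 1 it was −0.52 and called (adjusted p = 0.0309).

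FOSB, a close relative of FOS that is also induced early (chr19:45467995-45475179, plus strand), was scarce in untreated cells at 5.08, 5.69 and 11.9 CPM. The cGAMP libraries held 3.16, 3.04 and 3.05 CPM, all below the untreated ones. Chlorquinaldol libraries held 32.5, 38.5 and 35.0 CPM at 20 μM and 33.8, 46.5 and 41.1 CPM at 50 μM, all above them. FOSB was 2.44-fold lower with cGAMP (log2 −1.29 ± 0.27, adjusted p = 0.00196), the 114th lowest change of the 16628 genes. It rose 4.68-fold at 20 μM (log2 2.23 ± 0.21, adjusted p = 1.40e-07) and 5.37-fold at 50 μM (2.42 ± 0.21, adjusted p = 1.73e-08). The size of the fall depended on untreated replicate 3, without which it was −0.80 (adjusted p = 0.00498). Limma on FPKM did not call the fall (adjusted p from 0.0765 to 0.257 over 3 limma settings). The change was −0.50 on the log2(FPKM + 1) scale, which understates changes of low genes. On log2(FPKM + 0.1) it was −0.74 and still not called (adjusted p = 0.0765 in limma). FOSB lies within the position of ERCC1 on the other strand, and shares no exon base with it.

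FOSL1 encodes FRA-1, which lacks the strong activation domain of FOS (chr11:65892049-65900573, minus strand). Levels were 6.28, 6.92 and 6.57 CPM in untreated cells and 8.70, 8.70 and 9.58 CPM with cGAMP. At 20 μM they were 8.32, 5.63 and 3.75 CPM, and at 50 μM 13.7, 12.8 and 11.9 CPM. The 20 μM libraries spread to both sides of the untreated ones, whereas the 50 μM libraries lay above those of every other group. FOSL1 rose 1.94-fold at 50 μM (log2 0.96 ± 0.18, adjusted p = 0.000168). At 20 μM it was not called (−0.16 ± 0.19, adjusted p = 0.508), and the difference was 0.13 without 20 μM replicate 3 and −0.45, called, without replicate 1 (adjusted p = 0.0295). The cGAMP libraries did not overlap the untreated ones, but the difference was not called (0.45 ± 0.19, adjusted p = 0.0936). It was called when only these groups were fitted (adjusted p = 0.00258) and with no low-count filter (0.0101).

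FOSL2 encodes FRA-2, the other family member without a strong activation domain (chr2:28392448-28417312, plus strand). Untreated libraries held 235, 241 and 242 CPM and cGAMP libraries 231, 247 and 268 CPM. With chlorquinaldol FOSL2 stood at 270, 235 and 285 CPM at 20 μM and 361, 301 and 247 CPM at 50 μM. The 50 μM libraries just cleared the untreated ones. FOSL2 rose 1.27-fold there (log2 0.34 ± 0.11, adjusted p = 0.013), the smallest rise among the 10 genes at that dose. Limma on FPKM did not call it (adjusted p from 0.287 to 0.433), and without 50 μM replicate 3 the change was 0.53. It was not called at 20 μM (0.14 ± 0.11, 95% interval −0.10 to 0.37) or with cGAMP (0.05 ± 0.11, −0.18 to 0.29). FOSL2 overlaps an antisense gene, FLJ31356, without a shared exon base.

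JUN, 1 of the JUN proteins that FOS proteins pair with and a target of the JNK kinases (chr1:58780788-58784327, minus strand), was at 103, 102 and 138 CPM in untreated cells and 108, 106 and 124 CPM with cGAMP. At 20 μM its level was 215, 188 and 147 CPM. At 50 μM the libraries held 540, 444 and 407 CPM. The 3 levels were stepped, with no overlap between untreated, 20 μM and 50 μM libraries. JUN rose 1.60-fold at 20 μM (log2 0.68 ± 0.14, adjusted p = 0.000613) and 4.05-fold at 50 μM (2.02 ± 0.15, adjusted p = 1.75e-09). With cGAMP the difference was −0.02 ± 0.14 (95% interval −0.32 to 0.28, adjusted p = 0.935).

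JUNB, a weaker activator than JUN that can oppose it on some genes (chr19:12791496-12793315, plus strand), was at 58.2, 67.9 and 91.2 CPM in untreated cells. The cGAMP libraries lay close together at 60.8, 60.4 and 64.9 CPM, inside the untreated range. JUNB reached 207, 205 and 146 CPM at 20 μM and 381, 258 and 215 CPM at 50 μM. It rose 2.57-fold at 20 μM (log2 1.36 ± 0.19, adjusted p = 9.26e-06) and 3.93-fold at 50 μM (1.97 ± 0.19, adjusted p = 6.24e-08), and was not called with cGAMP (−0.22 ± 0.19, adjusted p = 0.423). JUNB lies within the position of HOOK2, a gene of the other strand, and 259 of its exon bases (14.2%) are also HOOK2 exon, so with the read strand not known some reads may be exchanged. HOOK2 went from 13.0 ± 0.43 CPM (SD, n = 3) in untreated cells to 26.5 ± 1.71 CPM at 50 μM. The part of these shared bases in the JUNB values was not tested.

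JUND, the JUN protein that resting cells usually hold at steady levels (chr19:18279760-18281622, minus strand), was at 40.0, 51.9 and 57.9 CPM in untreated cells and 40.6, 45.8 and 54.6 CPM with cGAMP. Chlorquinaldol libraries held 107, 68.3 and 62.0 CPM at 20 μM and 109, 114 and 91.6 CPM at 50 μM. All 6 lay above the untreated ones, though 20 μM replicate 1 stood apart at the level of the higher dose. JUND rose 1.58-fold at 20 μM (log2 0.66 ± 0.17, adjusted p = 0.00363) and 2.10-fold at 50 μM (1.07 ± 0.17, adjusted p = 3.18e-05). Without 20 μM replicate 1 the change at 20 μM was 0.43. Limma on all FPKM genes did not call it (adjusted p = 0.0571). With cGAMP JUND was not called (−0.09 ± 0.18, adjusted p = 0.767).

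ATF3, a stress-induced factor that represses many promoters as a dimer with itself (chr1:212565334-212620777, plus strand), had the largest rise of the 10 genes at 50 μM and the 176th largest of all 16628 genes. Untreated libraries held 7.39, 7.02 and 9.11 CPM, and cGAMP libraries 24.0, 26.8 and 38.7 CPM. ATF3 stood at 67.1, 53.2 and 34.6 CPM at 20 μM and at 179, 145 and 91.2 CPM at 50 μM. Every treated library was above every untreated one, and the 50 μM libraries were above all others. The rise was 3.80-fold with cGAMP (log2 1.93 ± 0.27, adjusted p = 5.57e-05), 6.58-fold at 20 μM (2.72 ± 0.27, adjusted p = 2.47e-07) and 17.6-fold at 50 μM (4.14 ± 0.27, adjusted p = 5.32e-10). All 17 alternative settings kept each of these 3 calls.

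BATF3, a partner of JUN that lacks an activation domain and is best known from dendritic cells (chr1:212686418-212699985, minus strand), was scarce in every group. It was at 1.21, 1.54 and 1.09 CPM in untreated cells and 2.28, 3.20 and 3.16 CPM with cGAMP. At 20 μM the libraries held 1.59, 0.968 and 1.65 CPM, and at 50 μM 3.25, 2.90 and 4.33 CPM. Both the cGAMP and the 50 μM libraries lay above all untreated and all 20 μM libraries. BATF3 rose 2.25-fold with cGAMP (log2 1.17 ± 0.25, adjusted p = 0.00252) and 2.73-fold at 50 μM (1.45 ± 0.25, adjusted p = 5.13e-05), and was not called at 20 μM (0.15 ± 0.27, 95% interval −0.43 to 0.72). The cGAMP call was lost in limma on all FPKM genes (adjusted p = 0.057).

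MAFF, a small Maf protein that pairs with NFE2L2 and BACH1 at antioxidant response elements (chr22:38200767-38216511, plus strand), was at 5.93, 6.76 and 7.76 CPM in untreated cells. With cGAMP it was at 6.16, 6.57 and 9.42 CPM, overlapping them. MAFF reached 43.6, 29.9 and 21.7 CPM at 20 μM and 102, 93.6 and 83.9 CPM at 50 μM. It rose 4.65-fold at 20 μM (log2 2.22 ± 0.21, adjusted p = 1.53e-07) and 13.7-fold at 50 μM (3.77 ± 0.21, adjusted p = 6.98e-11), the 224th largest change of all genes at that dose. It was not called with cGAMP (0.11 ± 0.24, adjusted p = 0.774). MAFF overlaps PLA2G6 by 4924 bases on the other strand, with no shared exon base.

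**Figure D2:**
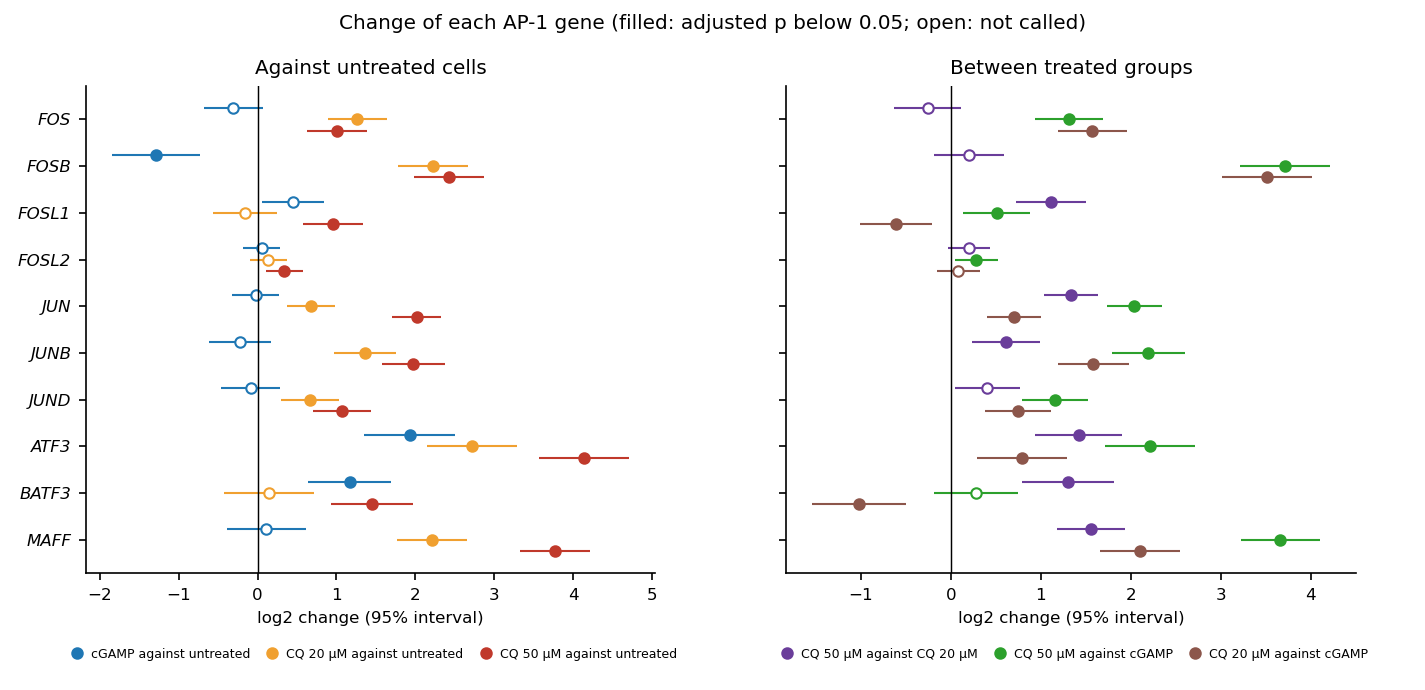
Log2 change with its 95% interval (lines) for each AP-1 gene, against untreated cells at left and between treated groups at right, filled where the adjusted p was below 0.05. ATF3 and MAFF lie farthest right at 50 μM, at 4.14 and 3.77, and FOSB at −1.29 is the filled point left of 0 for cGAMP.

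Between the doses, 6 of the 10 genes were higher at 50 μM than at 20 μM and none was lower, with 19.1% of all genes called higher and 19.0% lower (median 0.86 beside −0.02 over all genes). The step was 2.94-fold for MAFF (log2 1.56 ± 0.18, adjusted p = 3.89e-06), 2.68-fold for ATF3 (1.42 ± 0.23, adjusted p = 0.000111) and 2.53-fold for JUN (1.34 ± 0.14, adjusted p = 1.56e-06). It was 2.47-fold for BATF3 (1.30 ± 0.24), 2.17-fold for FOSL1 (1.12 ± 0.18) and 1.53-fold for JUNB (0.61 ± 0.18, adjusted p = 0.0128). FOS and FOSB, the early-response members of their family, were not called: the dose difference was −0.26 for FOS (95% interval −0.63 to 0.11) and 0.20 for FOSB (−0.19 to 0.59). FOSL2 (0.20, interval −0.03 to 0.44) and JUND (0.41, interval 0.05 to 0.77, adjusted p = 0.0684) were not called either. Whether one gene's dose step differs from another's was not tested.

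Of these dose calls, that of JUNB was lost without 50 μM replicate 1 (log2 0.37, adjusted p = 0.0774), without 20 μM replicate 3 (adjusted p = 0.064) and in limma on FPKM (adjusted p from 0.0835 to 0.203). JUND was called without 20 μM replicate 1 (0.70, adjusted p = 0.00091) and without 50 μM replicate 3 (0.52, adjusted p = 0.0319), and FOSL2 without 50 μM replicate 3 (0.35, adjusted p = 0.00954). With no low-count filter JUND (0.42, adjusted p = 6.16e-05) and FOS, as lower (−0.24, adjusted p = 0.0459), were called.

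Against cGAMP, 50 μM chlorquinaldol gave higher levels of 9 of the 10 genes and lower levels of none, with 32.0% of all genes called higher and 34.7% lower (median 1.68 beside −0.04). FOSB differed most, 13.1-fold (log2 3.71 ± 0.24, adjusted p = 3.71e-10), followed by MAFF at 12.6-fold (3.66 ± 0.21). On the log2(FPKM + 1) scale the FOSB difference was 2.49. ATF3, which both agents raised, was 4.64-fold higher with 50 μM chlorquinaldol (2.21 ± 0.24, adjusted p = 2.69e-07). BATF3 was the gene not called (0.28 ± 0.22, 95% interval −0.19 to 0.75). FOSL1 (0.51 ± 0.18, adjusted p = 0.0178) lost its call without cGAMP replicate 1 (adjusted p = 0.0573) and in limma on FPKM (adjusted p from 0.0825 to 0.173). FOSL2 (0.28 ± 0.11, adjusted p = 0.033), whose libraries overlapped, lost it without cGAMP replicate 1, cGAMP replicate 2 or 50 μM replicate 1 (adjusted p = 0.128, 0.0658 and 0.157).

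Chlorquinaldol at 20 μM gave higher levels than cGAMP for 7 genes and lower levels for 2, with 27.6% of all genes called higher and 28.0% lower (median 0.77 beside 0.0014). FOSB was 11.4-fold higher (log2 3.51 ± 0.24, or 2.38 on the log2(FPKM + 1) scale), MAFF 4.30-fold, JUNB 3.00-fold, FOS 2.98-fold, ATF3 1.73-fold, JUND 1.68-fold and JUN 1.63-fold. Without 20 μM replicate 1 the JUND difference went from log2 0.75 to 0.47 and was still called (adjusted p = 0.0108). The lower genes were BATF3 (log2 −1.02 ± 0.25, adjusted p = 0.00191) and FOSL1 (−0.61 ± 0.19, adjusted p = 0.0111). The ATF3 libraries of these groups overlapped, and its call (adjusted p = 0.00898) was lost without cGAMP replicate 1 (adjusted p = 0.0553) or 20 μM replicate 1 (0.0712). That of FOSL1 was lost without 20 μM replicate 3 (log2 −0.37, adjusted p = 0.0514) and was −0.95 without 20 μM replicate 1, and BATF3 was lost in limma on all FPKM genes (adjusted p = 0.0551).

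Per length, the order of levels in untreated cells was FOS at 169 ± 54.3 FPKM (SD, n = 3), then JUNB at 46.9 ± 10.2, JUN at 40.3 ± 6.25, FOSL2 at 40.2 ± 0.631 and JUND at 35.6 ± 4.14 FPKM. JUNB, JUN and FOSL2 overlapped in FPKM between libraries, as did JUN and JUND. Within each untreated library JUNB was above JUN, whereas the other pairs named here changed order between libraries. These orders were not tested. FOSL1 (5.23 ± 0.238 FPKM), ATF3 (5.08 ± 0.733 FPKM), MAFF (3.32 ± 0.392 FPKM), FOSB (2.20 ± 1.10 FPKM) and BATF3 (2.04 ± 0.598 FPKM) formed a lower tier, in which FOSL1 and ATF3 overlapped, and FOSB overlapped both MAFF and BATF3. With cGAMP the order was FOS (129 ± 7.91 FPKM), FOSL2 (41.0 ± 2.48), JUNB (38.6 ± 1.15), JUN (37.8 ± 2.83), JUND (31.5 ± 3.75), ATF3 (19.0 ± 5.14), FOSL1 (6.71 ± 0.244), BATF3 (4.09 ± 0.355), MAFF (3.40 ± 0.778) and FOSB (1.19 ± 0.131 FPKM). FOSL2, JUNB and JUN overlapped there between libraries, as did BATF3 and MAFF. Within each cGAMP library FOSL2 was above both JUNB and JUN, and this order was not tested. ATF3 stood above the other genes of the lower tier. At 20 μM it was FOS (385 ± 37.4 FPKM), JUNB (120 ± 19.8), JUN (62.8 ± 10.7), JUND (53.1 ± 13.2), FOSL2 (43.2 ± 5.77), ATF3 (33.4 ± 10.9), MAFF (15.2 ± 5.35), FOSB (10.4 ± 0.97), FOSL1 (4.40 ± 1.66) and BATF3 (2.34 ± 0.581 FPKM), and from JUN to ATF3 each gene overlapped the next, as did MAFF and FOSB. At 50 μM FOS stood at 296 ± 36.7 FPKM, JUNB at 166 ± 44.1, JUN at 145 ± 15.1, ATF3 at 79.6 ± 22.3, JUND at 72.6 ± 12.3, FOSL2 at 45.4 ± 8.05 and MAFF at 40.8 ± 2.88 FPKM. FOSB followed at 11.4 ± 2.38 FPKM, FOSL1 at 8.86 ± 0.39 and BATF3 at 5.10 ± 1.49 FPKM. At 50 μM ATF3 overlapped JUND, and MAFF overlapped FOSL2. JUNB and JUN overlapped as well, as did FOSB and FOSL1.

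The summed FPKM of the 4 FOS family genes was 216 ± 55.9 in untreated cells, 177 ± 6.99 with cGAMP, 443 ± 32.1 at 20 μM and 361 ± 38.6 at 50 μM. FOS made up 77.1% ± 4.94 of it in untreated cells, 72.4% ± 1.95 with cGAMP, 86.8% ± 2.10 at 20 μM and 81.8% ± 2.19 at 50 μM. The share of FOSL2 was 19.4% ± 4.52, 23.1% ± 1.77, 9.83% ± 1.89 and 12.6% ± 2.49 in the same order. FOSB stayed a minor part, at 0.982% ± 0.233 in untreated cells and 3.16% ± 0.533 at 50 μM.

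The 3 JUN family genes summed to 123 ± 19.9 FPKM in untreated cells, 108 ± 6.98 with cGAMP, 236 ± 40.0 at 20 μM and 383 ± 63.4 at 50 μM. JUNB held the largest mean share in each group, 38.0% ± 2.15, 35.9% ± 1.55, 50.9% ± 3.12 and 42.9% ± 4.42. JUN followed at 32.9% ± 2.04, 35.0% ± 0.944, 26.6% ± 0.0991 and 38.0% ± 2.54. JUND went from 29.2% ± 1.84 of the family in untreated cells to 22.5% ± 3.03 at 20 μM and 19.1% ± 3.17 at 50 μM, although its own level rose. The JUN family sum was below the FOS family sum in all libraries at 20 μM, whereas at 50 μM it was above it in replicate 1 and below it in replicates 2 and 3. These shares are descriptions of transcripts, with no test, and do not give protein amounts.

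**Figure D3:**
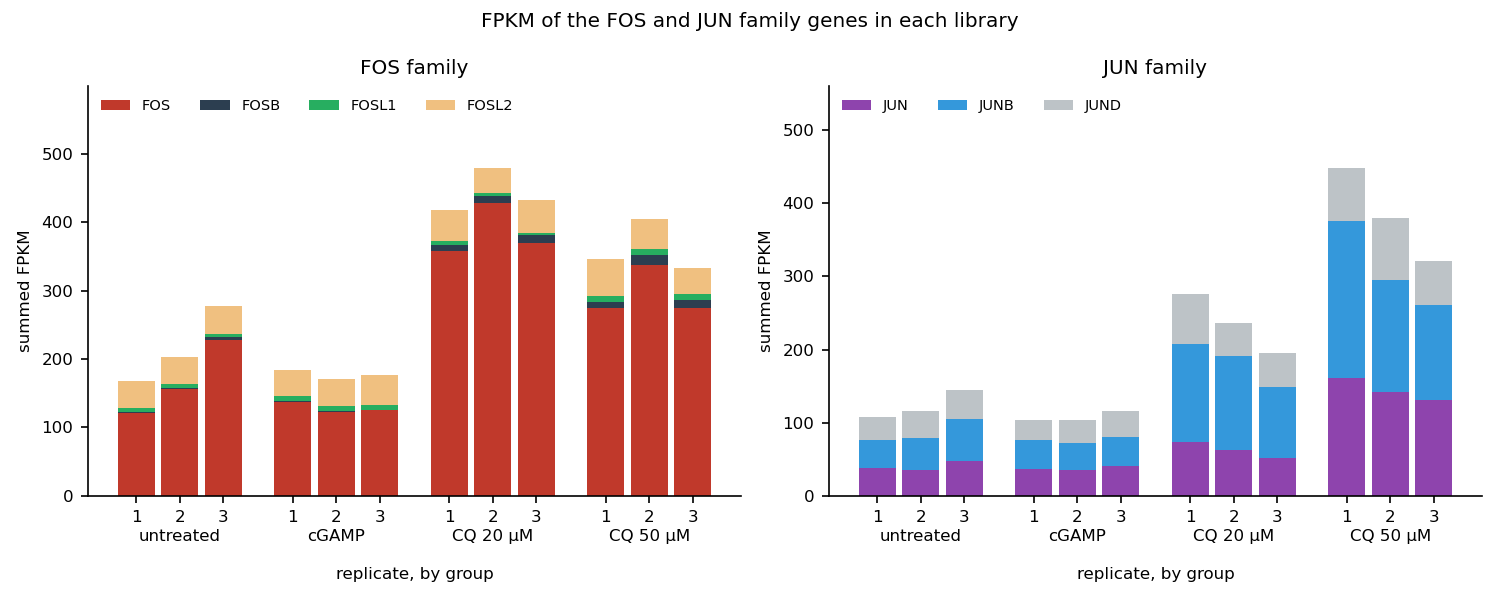
Stacked FPKM of the FOS family (left) and JUN family (right) in each of the 12 libraries, by group and replicate, with each colour a gene. FOS fills most of every left bar, and the right bars are highest at 50 μM, where the family sum is 383 ± 63.4 FPKM.

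Replicates of one group did not carry equal AP-1 levels. Untreated replicate 3 was the highest of its group for 8 of the 10 genes, whereas 33.9% of all tested genes were highest there, and its median deviation from the group mean was 0.23 on the log2 CPM scale over the 10 genes. Untreated replicate 1 was the lowest for 7 (34.9% of all genes). Replicate 3 of the 20 μM group was the lowest for 7 of the 10 (33.3% of all genes), with a median deviation of −0.30. Replicate 1 of that group was the highest for 6 (36.6% of all genes). Replicate 3 of the 50 μM group was the lowest for 8 (37.6% of all genes), and replicate 1 the highest for 6 (35.4% of all genes). Of the cGAMP libraries, replicate 3 was the highest for 7 (37.4% of all genes) and replicate 1 the lowest for 6 (41.6% of all genes). The widest single deviation was FOSB in untreated replicate 3, at 0.75. The part of these libraries in the results was checked by leaving each out, and the calls that changed stand beside the genes above.

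**Figure D4:**
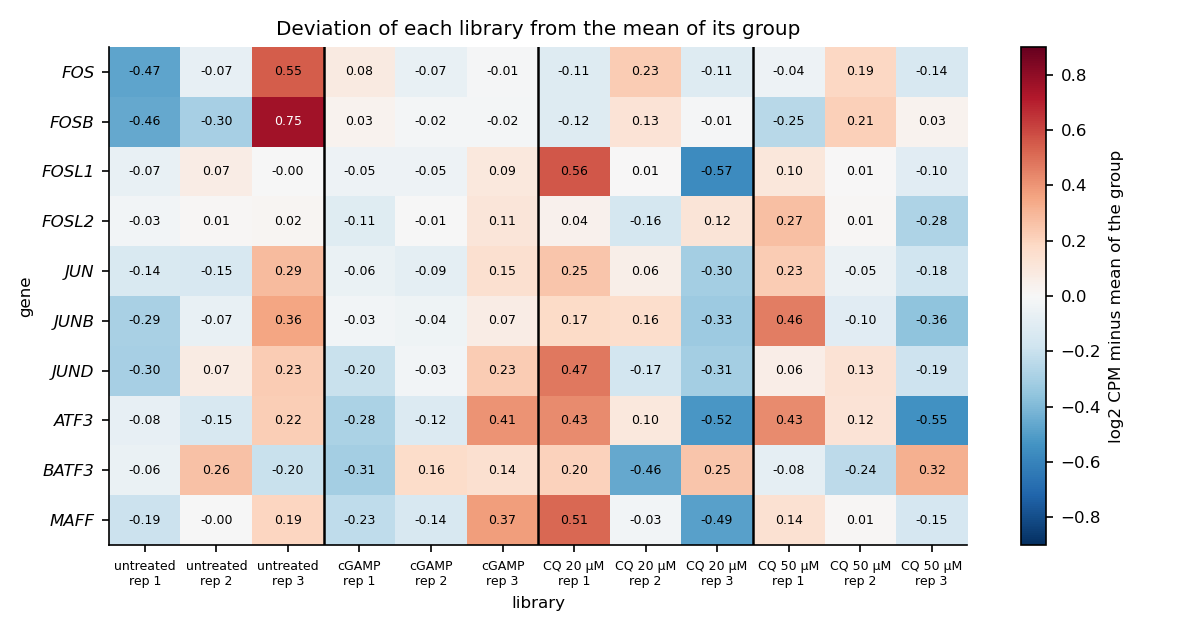
Log2 CPM of each AP-1 gene in each library minus the mean of its group, with red above and blue below that mean. Untreated replicate 3 is above its group for 8 genes, FOSB the most at 0.75, and 50 μM replicate 3 is below its group for 8.

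Over the 12 libraries, log2 CPM of 45 gene pairs gave Pearson correlations, described here with no test because libraries of a group share a condition. The pairs most alike were JUNB with MAFF and JUN with MAFF (r = 0.97 each) and FOS with FOSB (r = 0.96). JUNB was also close to JUND (r = 0.93) and FOSB (r = 0.93). FOSL1 and BATF3, which like FOSL2 were called at 50 μM but not at 20 μM, correlated with each other at 0.76 but with FOS at −0.01 and −0.10. FOSL2 was between 0.43 and 0.71 with every other member.

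**Figure D5:**
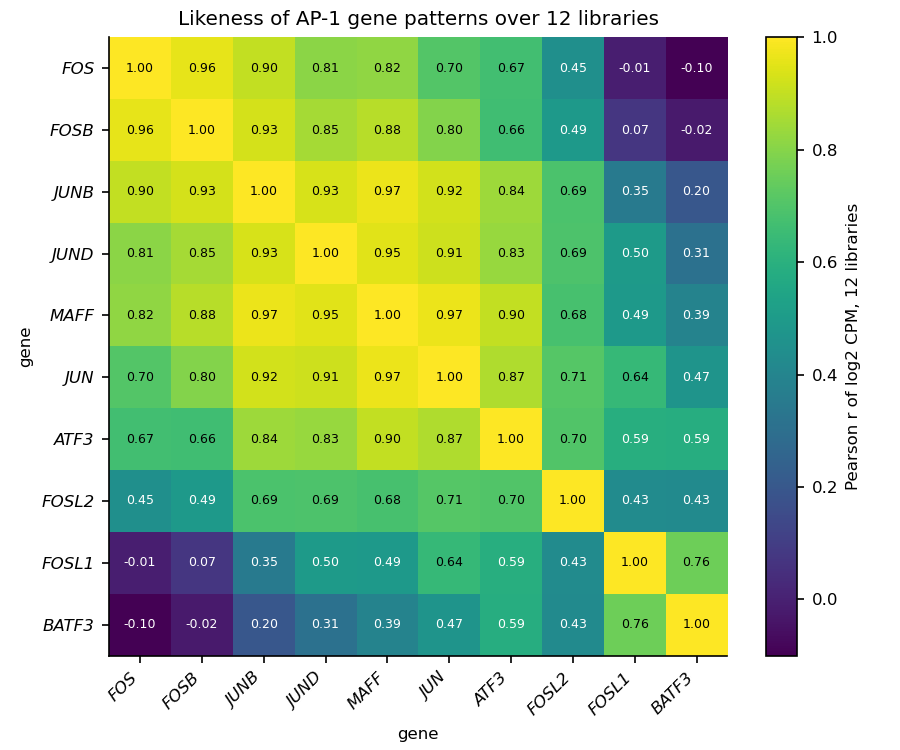
Pearson r of log2 CPM over 12 libraries for every pair of AP-1 genes, with genes ordered by hand so that like patterns adjoin. FOS, FOSB, JUNB, JUND, MAFF, JUN and ATF3 form a block with r of 0.66 or more. FOSL2, FOSL1 and BATF3 lie outside it, FOSL2 through its r of 0.45 with FOS and 0.49 with FOSB.

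Among all tested genes with at least 5 CPM in their highest group, those most like FOS over the 12 libraries were EGR2 (r = 0.982), KCTD6 (0.966) and ECI2 (0.964). EGR2, itself an early-response zinc finger gene, went from 3.27 ± 2.54 CPM in untreated cells to 19.7 ± 4.93 at 20 μM and 19.9 ± 6.50 at 50 μM, and was at 1.83 ± 0.307 CPM with cGAMP. The genes most like JUN were BCL6 (r = 0.990), a transcriptional repressor gene, BEST1 (0.990) and GPAT4 (0.989). BCL6 stood at 16.2 ± 1.90 CPM in untreated cells, 41.6 ± 8.84 at 20 μM and 148 ± 24.0 at 50 μM. ATF3 was most like C3AR1 (r = 0.992), which encodes the receptor for complement C3a, AGRN (0.988) and OSMR (0.986). C3AR1 was at 4.55 ± 0.554 CPM in untreated cells, 10.7 ± 2.16 with cGAMP, 15.2 ± 0.866 at 20 μM and 31.3 ± 7.06 at 50 μM. These genes were selected as the highest correlations, so the values describe likeness only.

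Other bZIP genes, which supply further dimer partners, numbered 33, of which 32 were tested. With cGAMP 9 rose and 6 fell, at 20 μM 13 rose and 9 fell, and at 50 μM 20 rose and 9 fell, with median log2 changes of 0.08, 0.16 and 0.54 beside −0.05, −0.0016 and −0.03 over all genes. Over all genes 11.6% were called higher and 11.8% lower with cGAMP, 27.1% and 28.0% at 20 μM, and 32.2% and 34.7% at 50 μM, so the lower calls among these 32 genes at both doses are near the share of all genes. BACH1, the repressor that pairs with small Maf proteins such as MAFF, rose from 44.0 ± 4.27 CPM to 120 ± 5.65 at 20 μM and 251 ± 21.2 at 50 μM (log2 1.45 ± 0.09 and 2.52 ± 0.09). The large Maf gene MAF rose by log2 0.41 ± 0.12 with cGAMP, 1.68 ± 0.12 at 20 μM and 2.42 ± 0.12 at 50 μM. BATF2, an interferon-induced relative of BATF3, rose with cGAMP from 2.59 ± 0.34 to 33.6 ± 4.62 CPM (log2 3.69 ± 0.15, adjusted p = 2.82e-12) and was not called at 20 μM (−0.11 ± 0.19) or 50 μM (0.40 ± 0.18, adjusted p = 0.0559).

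Of the 31 kinase genes that lead to AP-1, 1 rose and 6 fell with cGAMP, 14 rose and 6 fell at 20 μM, and 16 rose and 8 fell at 50 μM (medians −0.13, 0.17 and 0.22, beside −0.05, −0.0016 and −0.03 over all genes). The shares of all genes called higher and lower were 11.6% and 11.8% with cGAMP, 27.1% and 28.0% at 20 μM, and 32.2% and 34.7% at 50 μM. MAP3K8, which activates the ERK arm in macrophages, rose from 11.3 ± 1.62 CPM to 28.1 ± 3.81 at 20 μM and 89.0 ± 11.1 at 50 μM. MAP2K1, the kinase directly upstream of ERK, rose by log2 1.11 ± 0.08 and 1.61 ± 0.08, and RPS6KA3, an ERK-activated kinase, by 1.02 ± 0.08 and 1.45 ± 0.08. MAPKAPK2, which acts below p38, fell from 174 ± 7.39 CPM to 79.6 ± 4.28 and 67.1 ± 3.17 (log2 −1.13 ± 0.08 and −1.38 ± 0.08). Transcript levels do not measure the activity of these kinases.

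Factors that act at the FOS promoter numbered 9. With cGAMP 1 rose and none fell, beside 11.6% of all genes higher and 11.8% lower. At 20 μM 3 rose and 2 fell, and at 50 μM 5 rose and 2 fell. The medians were −0.05, 0.14 and 0.35, beside −0.05, −0.0016 and −0.03 over all genes. The counts at 20 μM are near the 27.1% higher and 28.0% lower of all genes, and at 50 μM those shares were 32.2% and 34.7%. SRF, which binds the CArG box, fell by 0.31 ± 0.07 on the log2 scale at 20 μM and by 0.55 ± 0.07 at 50 μM, and its coactivator gene MRTFA by 0.47 ± 0.08 and 1.27 ± 0.08. The related coactivator gene MRTFB rose by 0.41 ± 0.11 and 0.32 ± 0.11. Of the ETS partners of SRF, ELK3 rose by 0.85 ± 0.07 and 0.86 ± 0.07 at the 2 doses and ELK4 by 0.31 ± 0.08 and 0.69 ± 0.08, while ELK1 was not called at either (0.27 ± 0.16 and 0.35 ± 0.16, adjusted p = 0.176 and 0.0637). MRTFB and ELK1 were added to the named genes after their values were seen. ELK4 also rose with cGAMP (0.67 ± 0.08, adjusted p = 1.15e-05).

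In the list of 12 genes for decay of AP-1 transcripts and proteins, none rose and 3 fell with cGAMP. Of all genes 11.6% were called higher and 11.8% lower there. At 20 μM 4 rose and 4 fell, and at 50 μM 4 rose and 5 fell. The medians were −0.06, −0.06 and −0.08, beside −0.05, −0.0016 and −0.03 over all genes. All genes were called higher in 27.1% and lower in 28.0% of cases at 20 μM and in 32.2% and 34.7% at 50 μM, so the counts at both doses are near those shares. A pair of related RNA-decay genes moved in opposite directions with chlorquinaldol. ZFP36L1 rose from 19.6 ± 0.491 CPM to 132 ± 17.8 at 20 μM and 364 ± 82.4 at 50 μM (log2 2.75 ± 0.16 and 4.21 ± 0.16). ZFP36L2 fell from 519 ± 47.3 CPM to 148 ± 41.5 and 69.1 ± 2.64 (log2 −1.81 ± 0.14 and −2.91 ± 0.15). ELAVL1, which encodes the stabilising RNA-binding protein HuR, fell in all 3 comparisons (log2 −0.34, −0.57 and −0.79), and USP28, a deubiquitinase gene, rose at both doses (0.61 and 0.95).

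Genes known from textbooks for AP-1 sites were 29, of which 22 were tested. This list too was chosen with earlier results of these data known. At 20 μM 16 rose and 2 fell, and at 50 μM 18 rose and 2 fell, with medians of 1.09 and 2.08 beside −0.0016 and −0.03 over all genes. Of all genes 27.1% were called higher and 28.0% lower at 20 μM, and 32.2% and 34.7% at 50 μM. With cGAMP 4 rose and 4 fell (median −0.07), beside 11.6% and 11.8% of all genes. SPP1, the osteopontin gene, rose from 269 ± 32.7 CPM to 1193 ± 222 at 20 μM and 3683 ± 643 at 50 μM, and HMOX1, the heme oxygenase gene, from 18.3 ± 1.37 to 193 ± 88.9 and 3003 ± 788 CPM. CXCL8, a neutrophil chemokine gene, fell with cGAMP (log2 −1.24 ± 0.20, adjusted p = 0.000242) and rose at 20 μM (1.55 ± 0.20) and 50 μM (5.11 ± 0.23). These genes were named for their small p-values, and neither of the 2 list members that fell with chlorquinaldol is among them. Those 2 falls were not small, at log2 −1.56 ± 0.09 and −7.27 ± 0.48 at 50 μM against untreated cells. The same genes answer to other factors, and binding of AP-1 was not measured.

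Of 8 partners outside the bZIP family, none rose and 4 fell with cGAMP, beside 11.6% of all genes higher and 11.8% lower. At 20 μM 2 rose and 3 fell, and at 50 μM 4 rose and 1 fell. The medians were −0.18, 0.0073 and 0.26, beside −0.05, −0.0016 and −0.03 over all genes. With 27.1% of all genes higher and 28.0% lower at 20 μM, the counts at that dose are near the background, and at 50 μM the shares of all genes were 32.2% and 34.7%. IRF8, which binds composite sites together with BATF proteins, fell from 724 ± 11.9 CPM to 292 ± 83.1 at 20 μM and 157 ± 18.3 at 50 μM (log2 −1.31 ± 0.15 and −2.20 ± 0.15). ETS1 fell with cGAMP (−0.52 ± 0.10) and rose at both doses (0.31 ± 0.09 and 0.68 ± 0.09). NFATC1, a calcium-activated partner of FOS and JUN, did likewise (−0.39 ± 0.10, 0.45 ± 0.09 and 0.61 ± 0.09). ETS2 fell at 20 μM (−0.41 ± 0.09) and rose at 50 μM (0.74 ± 0.09).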

How the data were processed

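Gene-level estimated counts and FPKM of 12 libraries were made by the authors with RSEM against GRCh38, per the submitters' processing notes, which also name DESeq2 1.26.0. The authors' libraries were oligo(dT)-selected and run on a BGI DNBSEQ platform, per the labels. RSEM version, annotation and strand are not given in the sources used here. Estimated counts were rounded. The 326 entries without an Ensembl ID, 0.182% to 0.290% of counts, were left out. All per-sample columns were used.

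In R 4.3.3, edgeR 4.0.16 was used for the filter (filterByExpr, minimum count 10), TMM factors and a quasi-likelihood model over all 4 groups, which left 8 residual degrees of freedom. Benjamini-Hochberg adjustment ran over 16628 genes, with calls below 0.05. The SE is the log2 change over the square root of F. TMM factors ran from 0.905 to 1.06, and changes are relative to the bulk of genes. With 3 against 3 the smallest exact permutation p is 0.1, so the tests rely on spread pooled over genes. A prior count of 2 went into log2 CPM for correlations. The script was tested on simulated data.

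The members and lists were chosen with earlier results of these data known. All 10 members were named; up to 4 genes per list with the smallest p against untreated cells were named, and for FOS, JUN and ATF3 the 3 genes of highest r with at least 5 CPM in a group. Some genes that this rule or the lists bring in are not reported here. Positions come from GENCODE 29, and promoters from RefSeq. Alternatives tried were each library left out, a stricter threshold (0.01), a replicate block, a fit of the compared groups alone, a filter at 5 CPM in 3 libraries or none, upper-quartile or RLE factors, DESeq2 1.42.0, and limma 3.58.1 on log2(FPKM + 1), also over all FPKM genes, and on log2(FPKM + 0.1).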

Additional observations from a re-analysis of the deposited data

How the results depend on the processing

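The number of AP-1 genes called stayed within 1.5 times its value under every alternative run for 5 of the 6 comparisons, and all 10 genes were called at 50 μM against untreated cells when any 1 library was left out. For cGAMP against untreated cells the 3 calls became 5 with no low-count filter, which added FOS and FOSL1, and 1 in limma on log2(FPKM + 1) over all FPKM genes, which lost FOSB and BATF3. Of 1014 single-gene values under the alternatives, 961 kept direction and call, 33 lost the call, 10 gained one and 10 changed sign, all 10 without a call. The sign changes with cGAMP were JUN at 0.019 with no filter and 0.020 with only the groups compared, and further ones when a library was left out. Leaving out 1 library gave a range of −0.10 to 0.14 for JUN, −0.52 to 0.013 for FOS, −0.22 to 0.034 for JUND and −0.10 to 0.24 for MAFF with cGAMP, and of −0.45 to 0.13 for FOSL1 at 20 μM against untreated cells. The values above 0 came without untreated replicate 3 (FOS, JUN and JUND) or cGAMP replicate 1 or 2 (JUN) or 1 (JUND), that below 0 for MAFF without cGAMP replicate 3, and that above 0 for FOSL1 without 20 μM replicate 3. The cause of these shifts was not tested.

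FPKM carries no TMM scaling: in limma on log2(FPKM + 1) the median change of all genes at 50 μM against untreated cells was −0.14, and the dose step had 1702 higher and 3516 lower genes, against 3168 and 3159 in edgeR. Replicate numbers are not stated to pair samples, and deviations of same-numbered libraries correlated at −0.113 to 0.0671 (18 pairs), with 2 of 12 libraries closest to their own number. With a replicate block the counts of called members were 3, 7 and 10 for cGAMP, 20 μM and 50 μM against untreated cells, 6 for the dose step, and 9 and 9 against cGAMP, and no single call changed. BATF3, at 0.968 to 4.33 CPM, rests on few counts; it did not pass the filter of 5 CPM in 3 libraries.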
